A study of Mus musculus with 70 samples.

Results

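The lung of 6-day-old mice lacking the short isoform of Capicua (genotype Cic-S-KO) was compared with the lung of wild-type mice (WT) by RNA sequencing of polyadenylated transcripts. All lung libraries with these 2 genotype labels at postnatal day 6 (P6) were taken, which gave 8 Cic-S-KO and 8 WT libraries, 16 of the 70 in the series. The WT animals were pooled littermates of the Cic-S-KO line and of a second line without the long isoform, Cic-L-KO, and the labels do not give the line of each WT animal. The 8 Cic-L-KO lungs of the same age and batch, and the Cic-S-KO and WT cortex and cerebellum at 12 weeks, served only for direct tests of whether a change in the Cic-S-KO lung differed from theirs. The labels give no further detail of the alleles, and the libraries are of whole lung.

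Capicua is a DNA-binding repressor with an HMG box that acts together with ATXN1 or ATXN1L, and signalling through ERK relieves its repression. Its short and long isoforms start from different promoters and share the exons that encode the HMG box. The best known genes under its control are the ETS factors Etv1, Etv4 and Etv5, and in the lung its partner ATXN1L is known for a part in the formation of alveoli, the stage that the mouse lung passes through in the first weeks after birth.

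The 2 annotated starts of Cic are shown because the genotypes are defined by the isoforms that begin there. They lie 14480 bases apart on chromosome 7 (GRCm38.p6, RefSeq), and the gene itself spans chr7:25267704-25294159 in GENCODE M21 (ENSMUSG00000005442.13). The 250 bases before each start read as follows, at chr7:25267449-25267698, plus strand, and at chr7:25281929-25282178, plus strand.
Cic upstream start: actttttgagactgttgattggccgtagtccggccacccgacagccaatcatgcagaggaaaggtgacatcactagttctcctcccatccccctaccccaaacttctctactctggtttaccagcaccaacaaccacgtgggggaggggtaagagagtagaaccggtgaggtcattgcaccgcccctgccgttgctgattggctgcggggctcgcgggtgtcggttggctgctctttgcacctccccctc
Cic downstream start: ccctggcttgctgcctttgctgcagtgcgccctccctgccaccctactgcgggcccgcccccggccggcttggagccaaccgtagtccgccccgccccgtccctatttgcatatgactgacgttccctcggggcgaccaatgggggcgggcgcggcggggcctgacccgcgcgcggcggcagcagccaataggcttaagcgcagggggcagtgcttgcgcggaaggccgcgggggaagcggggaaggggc
Neither stretch holds TGAATGAA or TGAATGGA, the 8-base sequences that Capicua is known to bind, on either strand.

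The count of Cic itself covers both isoforms, so it cannot show the loss of one. Cic was measured at 127.5, 136 and 157 CPM (read counts scaled to a common library size; lowest, median and highest of 8) in WT and at 149, 175 and 183 CPM in Cic-S-KO lung. In 7 of 8 Cic-S-KO libraries the value was above every WT library. The log2 fold change was 0.31 ± 0.05 (standard error) with an edgeR adjusted p of 6.41e-05. In the lung without the long isoform the median was 132 CPM (-0.04 against WT, edgeR adjusted p = 0.681), and the difference between the 2 knockouts was 0.35 (edgeR adjusted p = 1.81e-05). The partner genes Atxn1 (log2 fold change 0.02, edgeR adjusted p = 0.811) and Atxn1l (-0.11, edgeR adjusted p = 0.104) did not pass the test against WT.

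Library totals ran from 19310684 to 35523037 reads in Cic-S-KO and from 21022959 to 27606935 in WT, and 16695 genes were tested. Transcripts of Y-linked genes were present in 4 of 8 libraries of each group, and 0 of 17496 genes passed for a difference of the genotype effect between libraries with and without them, while 869 had an unadjusted p under 0.05. The lung labels held in the data, with the surfactant gene Sftpc at a median of 13600 CPM in WT and 14070 CPM in Cic-S-KO. The labels do not say that each library is a separate animal, so the p-values measure the spread between these libraries. Replicates 2 and 6 of Cic-S-KO stood apart from the other libraries for several of the genes below. The values without them are given for some of these genes, and the others have only values from all libraries.

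Of the 16695 genes, 2624 (15.7%) differed between Cic-S-KO and WT lung at a Benjamini-Hochberg adjusted p under 0.05 in edgeR's quasi-likelihood test, which is what "called" means below. Of these, 1668 were higher (9.99% of those tested) and 956 lower (5.73%). The rises were the larger changes. Called genes that rose had a median log2 fold change of 0.55 and those that fell one of -0.21, and a change of at least 1 on the log2 scale was reached by 289 genes upward (1.73%) and 5 downward (0.0299%). In 252 genes every Cic-S-KO library was above every WT library (1.51%), and in 55 every one was below (0.329%), together 1.84% of those tested. The 2 directions also lay at different levels of expression. Among 2447 genes with a mean of at least 100 CPM, 171 were higher and 390 lower, whereas among 4302 genes between 1 and 10 CPM, 634 were higher and 62 lower. Within 10 Mb of Cic, where alleles linked to the targeted locus could differ, 52 of 319 genes were higher and 9 lower.

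**Figure D1:**
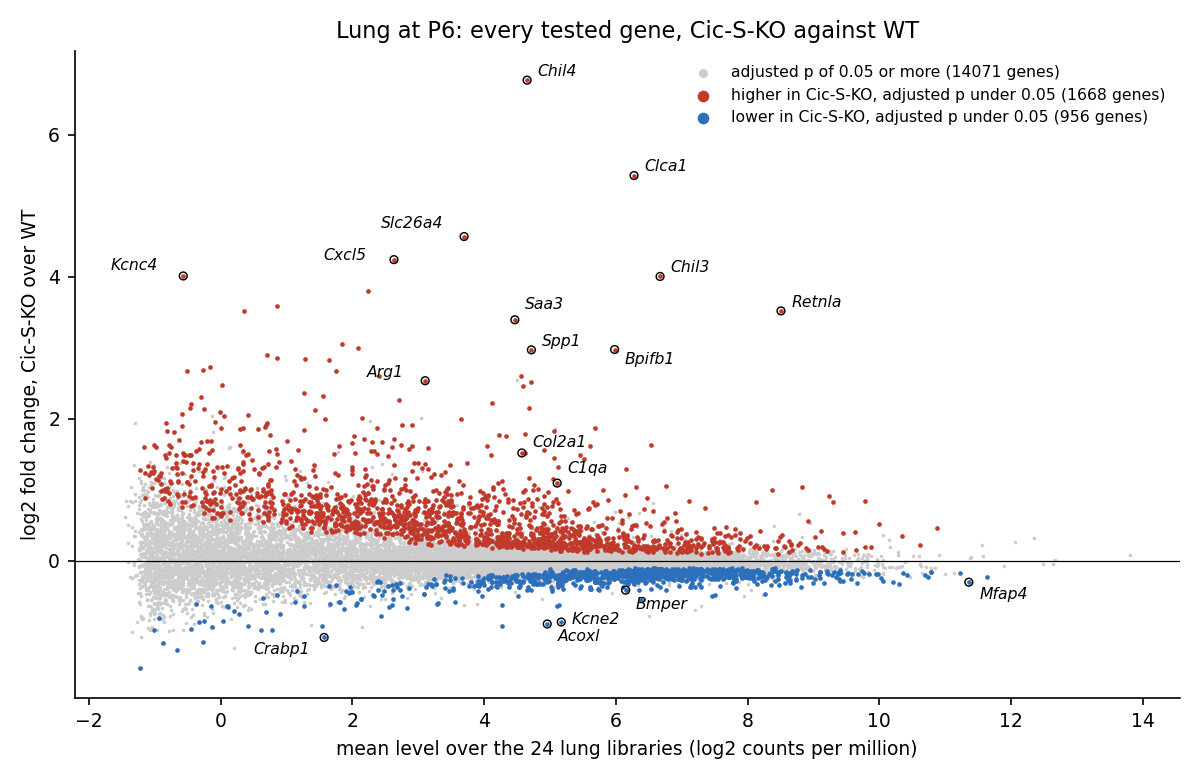
Mean level over the 24 lung libraries (log2 CPM, horizontal) against the log2 fold change of Cic-S-KO over WT (vertical), 1 point per tested gene, with the 1668 higher genes in red and the 956 lower genes in blue. The genes furthest from 0 are all higher, led by Chil4 and Clca1, and the lower genes stay close to the line at 0 and towards the right.

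The highest fold change belonged to a gene of type 2 inflammation, the response of lung tissue to IL-4 and IL-13 that is known from allergy and helminth infection. Of 17 tested genes of this list, 12 were called higher and 0 lower, against 9.99% and 5.73% of all genes, and the median log2 fold change of the list was 2.00 beside -0.0010 for all tested genes. The summed level of the list was 221, 287 and 422 CPM in WT and 630, 1505 and 3543 CPM in Cic-S-KO. Every Cic-S-KO library lay above the highest WT library, and the Cic-S-KO libraries themselves were spread widely, with replicates 1, 2, 5 and 6 highest and replicate 4 lowest. The count was between 10 and 13 whichever of the 16 libraries was left out.

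Chil4 and Chil3, neighbouring genes for secreted chitinase-like proteins of macrophages and airway epithelium, were among the most raised. Chil4 (ENSMUSG00000063779.6, chr3:106201490-106219507 on GRCm38) stood at 0.0784, 0.275 and 2.13 CPM in WT and at 1.74, 53.6 and 243 CPM in Cic-S-KO. In Cic-S-KO, 3 libraries (replicates 3, 4 and 8) stayed below 3 CPM and the other 5 exceeded 20 CPM, so the groups overlapped at their edges. With these WT levels, Chil4 passed the count filter only with the help of knockout libraries. The log2 fold change was 6.77 ± 1.08 (edgeR adjusted p = 0.000344), and 6.13 without Cic-S-KO replicate 2. Chil3 stood at 4.10, 7.75 and 70.8 CPM in WT and at 19.7, 219.5 and 601 CPM in Cic-S-KO. In WT, replicates 3 and 7 lay above the lowest Cic-S-KO library, replicate 8, and the other 7 Cic-S-KO libraries exceeded every WT library. The log2 fold change was 4.004 ± 0.68 (edgeR adjusted p = 0.000580), and 4.90 without WT replicate 7.

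Chil3 and Chil4 are close copies, and reads that fit both could have been assigned to either. Of all 50-base windows of Chil3 transcripts in GENCODE M21, 16.9% occur in Chil4 transcripts, and 9.95% of Chil4 windows occur in Chil3. Their promoters are shown because the 2 genes moved together and their upstream sequences are nearly the same. The 250 bases before each start (GRCm38.p6, RefSeq) lie at chr3:106167565-106167814, minus strand, and at chr3:106219480-106219729, minus strand.
Chil3: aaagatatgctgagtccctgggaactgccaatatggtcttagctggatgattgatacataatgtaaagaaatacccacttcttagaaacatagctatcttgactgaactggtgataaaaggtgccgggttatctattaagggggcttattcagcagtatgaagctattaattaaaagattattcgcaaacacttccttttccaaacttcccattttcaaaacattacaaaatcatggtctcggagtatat
Chil4: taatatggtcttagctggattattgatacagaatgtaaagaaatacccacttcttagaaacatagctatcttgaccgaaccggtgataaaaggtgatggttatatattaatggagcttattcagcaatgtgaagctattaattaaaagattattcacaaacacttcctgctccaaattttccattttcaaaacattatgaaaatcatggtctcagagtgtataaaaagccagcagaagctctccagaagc
In a global alignment 201 of 221 aligned bases are identical (91%). Neither holds either of the Capicua octamers.

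Retnla, which encodes the macrophage and epithelial product RELM alpha, separated the groups fully. It stood at 31.2, 55.7 and 183 CPM in WT and at 277, 652 and 1798 CPM in Cic-S-KO, with all 8 Cic-S-KO libraries above all WT libraries. The log2 fold change was 3.52 ± 0.49 (edgeR adjusted p = 0.000105). Arg1, the arginase of alternatively activated macrophages, rose by a log2 fold change of 2.54 ± 0.41 (edgeR adjusted p = 0.000344). Its median went from 2.46 to 12.4 CPM, replicate 6 of Cic-S-KO alone reached 62.9 CPM, and the log2 fold change without that library was 1.87. The eosinophil-attracting chemokines Ccl24 (log2 fold change 2.86) and Ccl11 (1.01) also rose, and Ccl17 (1.02) rose but lost the call without any 1 of 11 libraries.

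The receptors and upstream cytokines of this response did not move as a block. The receptor subunits Il4ra (log2 fold change 0.14, edgeR adjusted p = 0.220) and Il13ra1 (0.06, edgeR adjusted p = 0.351) and the epithelial cytokine Tslp (0.09, edgeR adjusted p = 0.757) did not pass. Il33, an alarmin released by damaged epithelium and stroma, stood at 39.7, 47.2 and 61.4 CPM in WT and at 39.5, 63.0 and 244 CPM in Cic-S-KO. In Cic-S-KO 5 libraries were above all WT libraries, 1 was below all of them, and replicates 6 and 8 were far above the rest. Its log2 fold change of 0.93 ± 0.29 passed (edgeR adjusted p = 0.0344), but the call was lost without Cic-S-KO replicate 6 or 8, or WT replicate 2, 5, 6 or 8. The transcripts of Il13 were too few to test, with 16 reads in the 8 WT and 94 reads in the 8 Cic-S-KO libraries together. The IL-33 receptor gene Il1rl1 was not analysed here.

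Genes of mucus-secreting goblet cells, a cell of the airway epithelium, rose too. All 7 tested members of the goblet cell list were called higher (9.99% of all genes were), with a median log2 fold change of 2.52. They were also called in each of the 16 sets with 1 library left out. The genes Clca1, Fcgbp and Muc5ac are members of both lists. Clca1, a secreted regulator of mucus, stood at 0.118, 0.794 and 23.4 CPM in WT and at 6.04, 131 and 778 CPM in Cic-S-KO. In Cic-S-KO 5 libraries lay above all WT libraries, and 2 WT libraries (replicates 1 and 5) reached over 10 CPM. The log2 fold change was 5.42 ± 1.07 (edgeR adjusted p = 0.00194), 4.69 without Cic-S-KO replicate 2 and 6.72 without WT replicate 5. The mucin genes Muc5ac (log2 fold change 2.00 ± 0.42, edgeR adjusted p = 0.00299) and Muc5b (2.52 ± 0.67, edgeR adjusted p = 0.0138) rose with it. Muc5ac went from a median of 5.30 to one of 18.2 CPM, with 1 Cic-S-KO library (replicate 4) below all WT libraries. Muc5b reached 3.39 on the log2 scale without WT replicate 5.

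Other members of the secretory programme followed. The disulfide isomerase Agr2, needed for mucin folding, rose by 3.06 ± 0.57 (edgeR adjusted p = 0.00119), and Fcgbp by 2.01 ± 0.41 (edgeR adjusted p = 0.00215). The trefoil factor Tff2 went from a median of 0.559 to one of 5.53 CPM (edgeR adjusted p = 0.0156). Its log2 fold change was 4.09 without WT replicate 5 and 2.31 without Cic-S-KO replicate 2. The anion exchanger gene Slc26a4 (pendrin), which airway epithelium raises under IL-13, went from a median of 0.660 to one of 23.8 CPM (log2 fold change 4.57 ± 0.84, edgeR adjusted p = 0.00112). Bpifb1, a secreted airway protein, reached a median of 131 CPM (2.98 ± 0.50, edgeR adjusted p = 0.000529). Spdef, the transcription factor that drives goblet cell formation, rose by 0.97 ± 0.24 (edgeR adjusted p = 0.00775) from a median of 1.44 to one of 2.43 CPM. Fer1l6, a ferlin family gene that is no member of the list, rose by 3.80 ± 0.78 (edgeR adjusted p = 0.00254) and by 3.15 without Cic-S-KO replicate 2. For Clca1, Fcgbp, Tff2, Muc5ac, Fer1l6 and Chil4 the highest value was in that same library. In whole lung, more goblet cells and more RNA per goblet cell cannot be told apart, and the same holds for every cell type below.

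**Figure D2:**
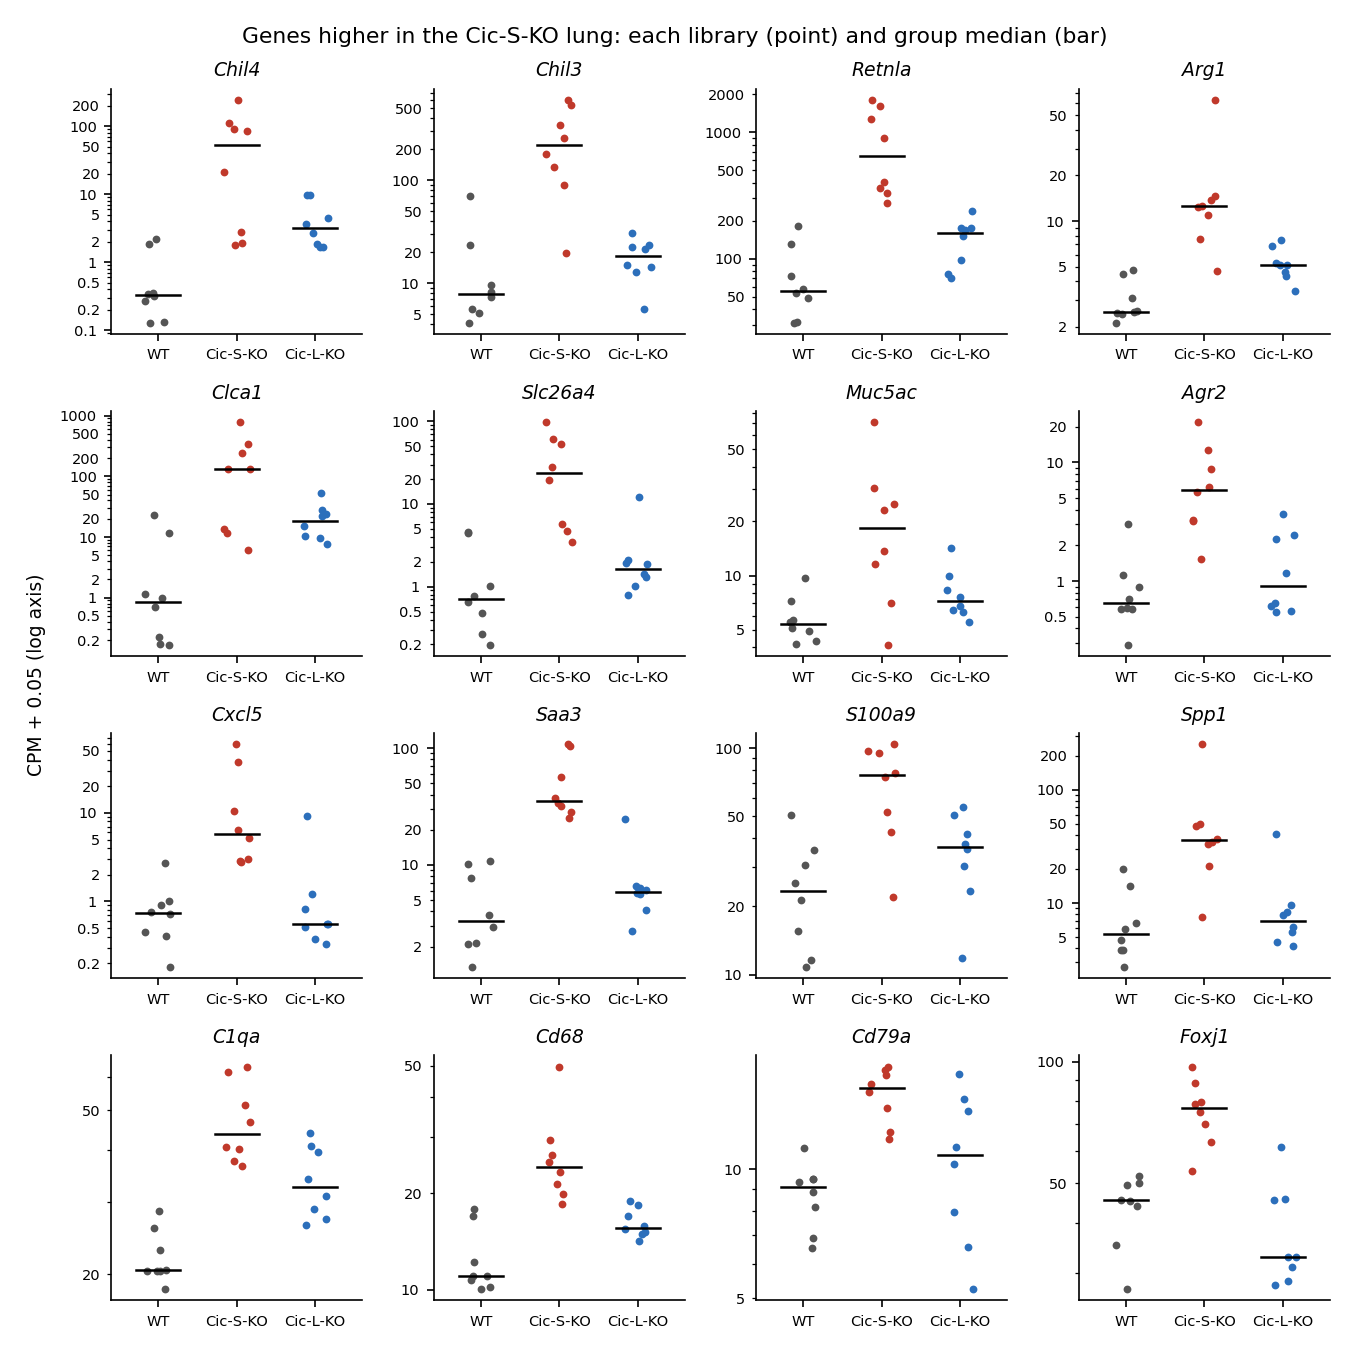
Level of 16 genes (CPM plus 0.05, log axis) in each of the 8 WT, 8 Cic-S-KO and 8 Cic-L-KO lung libraries (points), with group medians as bars. Retnla, Cxcl5, Saa3, C1qa, Cd68, Cd79a and Foxj1 have no Cic-S-KO library within the WT range, while Chil4, Clca1 and Muc5ac spread over most of the vertical range within Cic-S-KO.

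Genes of neutrophils and of acute inflammation were raised as well. All 11 tested neutrophil genes were called higher (9.99% of all genes were), with a median log2 fold change of 1.52. The count was 10 or 11 whichever library was left out. S100a9, a calcium-binding protein stored in neutrophils, stood at 10.8, 23.2 and 50.8 CPM in WT and at 22.0, 75.9 and 104 CPM in Cic-S-KO, a log2 fold change of 1.49 ± 0.36 (edgeR adjusted p = 0.00765). Of 8 Cic-S-KO libraries 6 were above all WT libraries, and replicate 2, the library with the most Clca1, had the lowest summed neutrophil level of the group at 106 CPM. S100a8 (1.44), the granule genes Ltf (1.56) and Mmp8 (1.60) and the surface marker Ly6g (1.70) rose too. The call of Ly6g, a gene with close relatives in the genome, was lost without any 1 of 6 libraries.

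The neutrophil attractant Cxcl5 and the acute phase gene Saa3 separated the groups in all 16 libraries. Cxcl5 stood at 0.132, 0.696 and 2.69 CPM in WT and at 2.703, 5.70 and 59.3 CPM in Cic-S-KO, so that the groups only just parted. Its log2 fold change of 4.24 ± 0.89 (edgeR adjusted p = 0.00295) was 3.52 without Cic-S-KO replicate 6. Saa3 stood at 1.29, 3.29 and 10.8 CPM in WT and at 25.01, 35.5 and 107 CPM in Cic-S-KO, a log2 fold change of 3.39 ± 0.52 (edgeR adjusted p = 0.000230). Lcn2, an iron-scavenging defence protein of epithelium and neutrophils, rose by 1.63 ± 0.39 (edgeR adjusted p = 0.00747), again with no overlap. Of 9 acute inflammation genes 7 were higher (9.99% of all genes were) and 1 was lower (5.73%). Among the higher were Tnf (1.55) and Il1b (1.19, lost without any 1 of 6 libraries). The lower gene was Nos2, the inducible nitric oxide synthase, at -0.30 ± 0.09 (edgeR adjusted p = 0.0301), and that call was lost without any 1 of 4 libraries.

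Chemokine genes rose in both families, with 8 of 14 CC genes and 10 of 13 CXC and CX3C genes called higher and 0 lower. Among all genes, 9.99% were higher and 5.73% lower. The monocyte attractant Ccl2 (log2 fold change 1.51 ± 0.28, edgeR adjusted p = 0.000617) went from a median of 0.892 to one of 2.20 CPM. Ccl3 (2.10 ± 0.39, edgeR adjusted p = 0.000761) and Ccl9 (1.77 ± 0.35, edgeR adjusted p = 0.00213) had every Cic-S-KO library above every WT library, as did Cxcl17 (1.59 ± 0.24, edgeR adjusted p = 0.000116), a mucosal chemokine whose gene neighbours Cic on chromosome 7. Ccl6 stood at 48.1, 60.8 and 93.3 CPM in WT and at 70.7, 114.5 and 213 CPM in Cic-S-KO (0.89 ± 0.21, edgeR adjusted p = 0.00652). Replicate 6 of Cic-S-KO was the highest library for both Ccl9 and Ccl6.

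Among called genes, 3 members of the gene lists carry a Capicua octamer in the 250 bases before an annotated start: Ccl9, Il33 and Ly6g. TGAATGAA and TGAATGGA were searched on both strands of these 250 bases in RefSeq (GRCm38.p6), which held a sequence for 11652 of the tested genes. An octamer was present for 1.73% of those genes, for 30 of 1239 called higher (2.42%) and for 6 of 726 called lower (0.826%). Of the genes known as Capicua targets, 9 had a sequence, and 1 of these held an octamer (11.1%). Etv4 and Col2a1 had no sequence in this set, so the search does not cover them. The stretches of Ccl9 (chr11:83578637-83578886, minus strand) and of the downstream start of Il33 (chr19:29945540-29945789, plus strand) are shown with the octamer or its reverse complement in capitals.
Ccl9: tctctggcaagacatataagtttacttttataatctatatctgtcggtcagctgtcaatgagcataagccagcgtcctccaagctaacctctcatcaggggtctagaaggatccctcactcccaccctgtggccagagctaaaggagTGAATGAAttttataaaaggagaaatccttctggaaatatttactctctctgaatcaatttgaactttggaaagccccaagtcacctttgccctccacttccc
Il33: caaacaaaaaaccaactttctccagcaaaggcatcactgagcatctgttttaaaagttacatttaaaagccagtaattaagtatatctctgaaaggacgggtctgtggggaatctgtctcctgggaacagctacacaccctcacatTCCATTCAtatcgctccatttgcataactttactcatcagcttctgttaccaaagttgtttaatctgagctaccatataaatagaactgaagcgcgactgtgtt
The octamer starts 103 bases before the start of Ccl9 and 104 bases before that of Il33, where it lies on the other strand. A match of letters is a description and not evidence of binding.

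Of 9 general macrophage genes 8 were called higher (9.99% of all genes were), with a median log2 fold change of 0.99. The summed level of the 9 genes was 204, 228 and 292.5 CPM in WT and 310, 342 and 504 CPM in Cic-S-KO, with no overlap. C1qa, C1qb and C1qc, the chains of complement C1q made by tissue macrophages, changed by 1.09 ± 0.13 (edgeR adjusted p = 1.88e-05), 1.16 ± 0.16 (edgeR adjusted p = 5.60e-05) and 0.99 ± 0.12 (edgeR adjusted p = 1.96e-05). C1qa stood at 18.4, 20.4 and 28.4 CPM in WT and at 36.5, 43.6 and 63.7 CPM in Cic-S-KO, so that the lowest knockout library was above the highest WT library. The lysosomal marker Cd68 (1.09 ± 0.17), the F4/80 gene Adgre1 (1.00 ± 0.13) and the mannose receptor gene Mrc1 (0.70 ± 0.09) were likewise above WT in all 8 libraries. Replicate 6 of Cic-S-KO was the highest for Cd68, at 49.6 CPM beside 29.3 CPM in the next library.

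Of 9 alveolar macrophage genes 4 were higher (9.99% of all genes were), and 7 without Cic-S-KO replicate 8. They included the lipid carrier Fabp4 (log2 fold change 1.38 ± 0.26, edgeR adjusted p = 0.000977), while the alveolar macrophage lectin gene Siglecf did not pass (0.40 ± 0.17, edgeR adjusted p = 0.107). Of 5 monocyte genes 4 were higher, among them Ccr2 (0.69 ± 0.13, edgeR adjusted p = 0.000861) and Ly6c2 (0.99 ± 0.21, edgeR adjusted p = 0.00267). Spp1, the secreted phosphoprotein osteopontin of activated macrophages, went from 2.68, 5.29 and 19.9 CPM in WT to 7.46, 35.9 and 251 CPM in Cic-S-KO. Its log2 fold change of 2.97 ± 0.66 (edgeR adjusted p = 0.00469) fell to 2.10 without Cic-S-KO replicate 6. Wdfy4, a gene of antigen cross-presentation, rose by 0.96 ± 0.11 (edgeR adjusted p = 7.64e-06) with no overlap. Of 7 dendritic cell genes 2 were higher (9.99% of all genes were) and 1 lower (5.73%). The lower one was the lectin gene Cd209a (-1.16 ± 0.32, edgeR adjusted p = 0.0151), whose median was low, at 0.567 CPM in WT and 0.230 CPM in Cic-S-KO. A second gene was lower without WT replicate 6 or 7 or Cic-S-KO replicate 8.

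Complement genes were called higher without exception, 11 of 11, with a median log2 fold change of 0.92 and between 9 and 11 calls when 1 library was left out. C3, the central component, stood at 291, 380 and 689 CPM in WT and at 497, 750 and 1274 CPM in Cic-S-KO (0.92 ± 0.20, edgeR adjusted p = 0.00407). C4b (1.44 ± 0.26, edgeR adjusted p = 0.000898) and the protease gene C1ra (0.50 ± 0.07, edgeR adjusted p = 7.79e-05) rose with it. The list includes the 3 C1q genes counted among the macrophage genes above. Of the antigen-presenting genes, H2-D1 (0.82 ± 0.20, edgeR adjusted p = 0.00724) and H2-K1 (1.04 ± 0.28, edgeR adjusted p = 0.0153) were the 2 of 9 class I genes called higher (9.99% of all genes were). They are related genes of one family, and reads that fit both may be split between them. How much sequence they share was not tested. Without WT replicate 3, which had the highest WT level of both, 5 class I genes were called. Of 7 class II genes 0 passed in edgeR or DESeq2 and 0 had an unadjusted p under 0.05, and 1 was called without Cic-S-KO replicate 7. Of 17 interferon-response genes 3 were higher (9.99% of all genes were). The count was 5 in DESeq2 and without WT replicate 3 or Cic-S-KO replicate 8, and 1 without WT replicate 2.

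Of 8 B cell genes 6 were called higher (9.99% of all genes were), with a median log2 fold change of 0.71. Cd79a, a chain of the B cell receptor, stood at 6.51, 9.02 and 11.2 CPM in WT and at 11.7, 15.4 and 17.3 CPM in Cic-S-KO (0.78 ± 0.18, edgeR adjusted p = 0.00401), with no overlap. Cd22 (0.85 ± 0.17, edgeR adjusted p = 0.00119) and the heavy chain gene Ighm (0.73 ± 0.17, edgeR adjusted p = 0.00666) also had no overlap. Of 8 T cell genes 0 were called by edgeR or DESeq2 and 2 had an unadjusted p under 0.05, Cd3e giving 0.47 ± 0.24 (edgeR adjusted p = 0.194), and 1 was called higher without Cic-S-KO replicate 4, 7 or 8 or WT replicate 2, and 1 lower without WT replicate 7. The granzyme genes Gzma (1.72 ± 0.40, edgeR adjusted p = 0.00521) and Gzmb (1.96 ± 0.38, edgeR adjusted p = 0.00115) were 2 of the 3 called among 8 cytotoxic lymphocyte genes. Of 6 mast cell and basophil genes 3 were higher, among them the proteases Tpsb2 by 0.67 ± 0.12 (edgeR adjusted p = 0.000376) and Cma1 by 0.72 ± 0.15 (edgeR adjusted p = 0.00253). Only 1 gene of the eosinophil list had enough reads to test, and it did not pass.

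**Figure D3:**
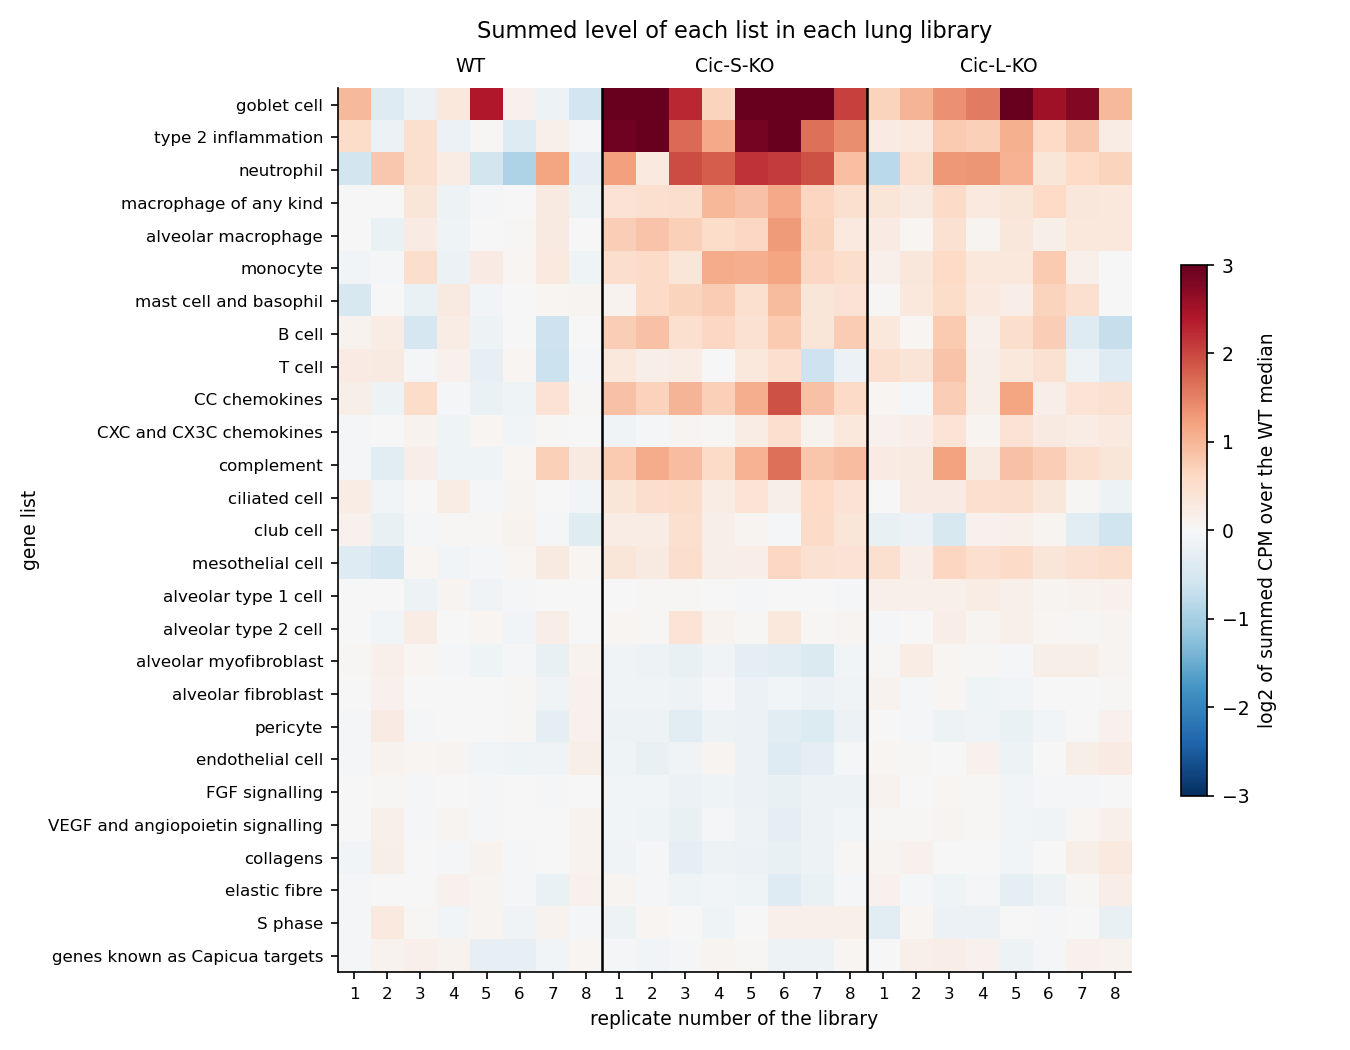
Summed CPM of each gene list in each of the 24 lung libraries, as the log2 ratio to the WT median of that list (colour scale from -3 to 3, values beyond it drawn in the end colour), with columns for replicates 1 to 8 of WT, Cic-S-KO and Cic-L-KO. The immune and goblet cell rows are red across most Cic-S-KO columns, the lower rows are pale to light blue, and the chemokine row for CXC and CX3C genes is pale because its sum is mostly Cxcl15, a gene that was not called.

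Other airway epithelial genes were higher as well. Of 9 ciliated cell genes 6 were called higher (9.99% of all genes were), with a median log2 fold change of 0.62. Foxj1, the master regulator of motile cilia, stood at 27.3, 45.4 and 52.2 CPM in WT and at 53.6, 77.0 and 97.3 CPM in Cic-S-KO (0.80 ± 0.16, edgeR adjusted p = 0.00208), with no overlap. The ciliary genes Pifo (0.96 ± 0.15, edgeR adjusted p = 9.55e-05) and Rsph1 (0.93 ± 0.16, edgeR adjusted p = 0.000350) separated as well. Scgb3a2, a secretoglobin, was the 1 of 7 club cell genes called (0.84 ± 0.19, edgeR adjusted p = 0.00412). The count was 3 in DESeq2 and without WT replicate 5, and 2 without WT replicate 7 or Cic-S-KO replicate 4, and 5 of the 7 had an unadjusted p under 0.05. The defining club cell gene Scgb1a1 did not pass (0.23 ± 0.11, edgeR adjusted p = 0.147). Aqp3, a water and glycerol channel of airway basal cells, rose by 2.26 ± 0.42 (edgeR adjusted p = 0.00109), all 8 libraries lying above WT.

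Alveolar epithelial genes were called about as often as all genes (15.7%). Of 10 alveolar type 2 genes 2 were higher, the collectins Sftpd (0.57 ± 0.12, edgeR adjusted p = 0.00237) and Sftpa1 (0.35 ± 0.09, edgeR adjusted p = 0.0113), which opsonise microbes in the alveolar space. The surfactant protein genes Sftpc (0.08 ± 0.06, edgeR adjusted p = 0.383) and Sftpb (-0.09 ± 0.06, edgeR adjusted p = 0.305) did not pass. Of 10 alveolar type 1 genes only Hopx was called (0.15 ± 0.05, edgeR adjusted p = 0.0465), a call lost without any 1 of 11 libraries, and Ager gave 0.07 ± 0.05 (edgeR adjusted p = 0.320). The mesothelial genes Msln (0.48 ± 0.10, edgeR adjusted p = 0.00247) and Wt1 (0.75 ± 0.16, edgeR adjusted p = 0.00206) were among 4 of 5 called higher. The abundant lysosomal genes Lyz2 and Psap, shared by macrophages and type 2 cells, rose by 0.46 ± 0.13 (edgeR adjusted p = 0.0217, lost without Cic-S-KO replicate 6) and 0.52 ± 0.09 (edgeR adjusted p = 0.000330).

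**Figure D4:**
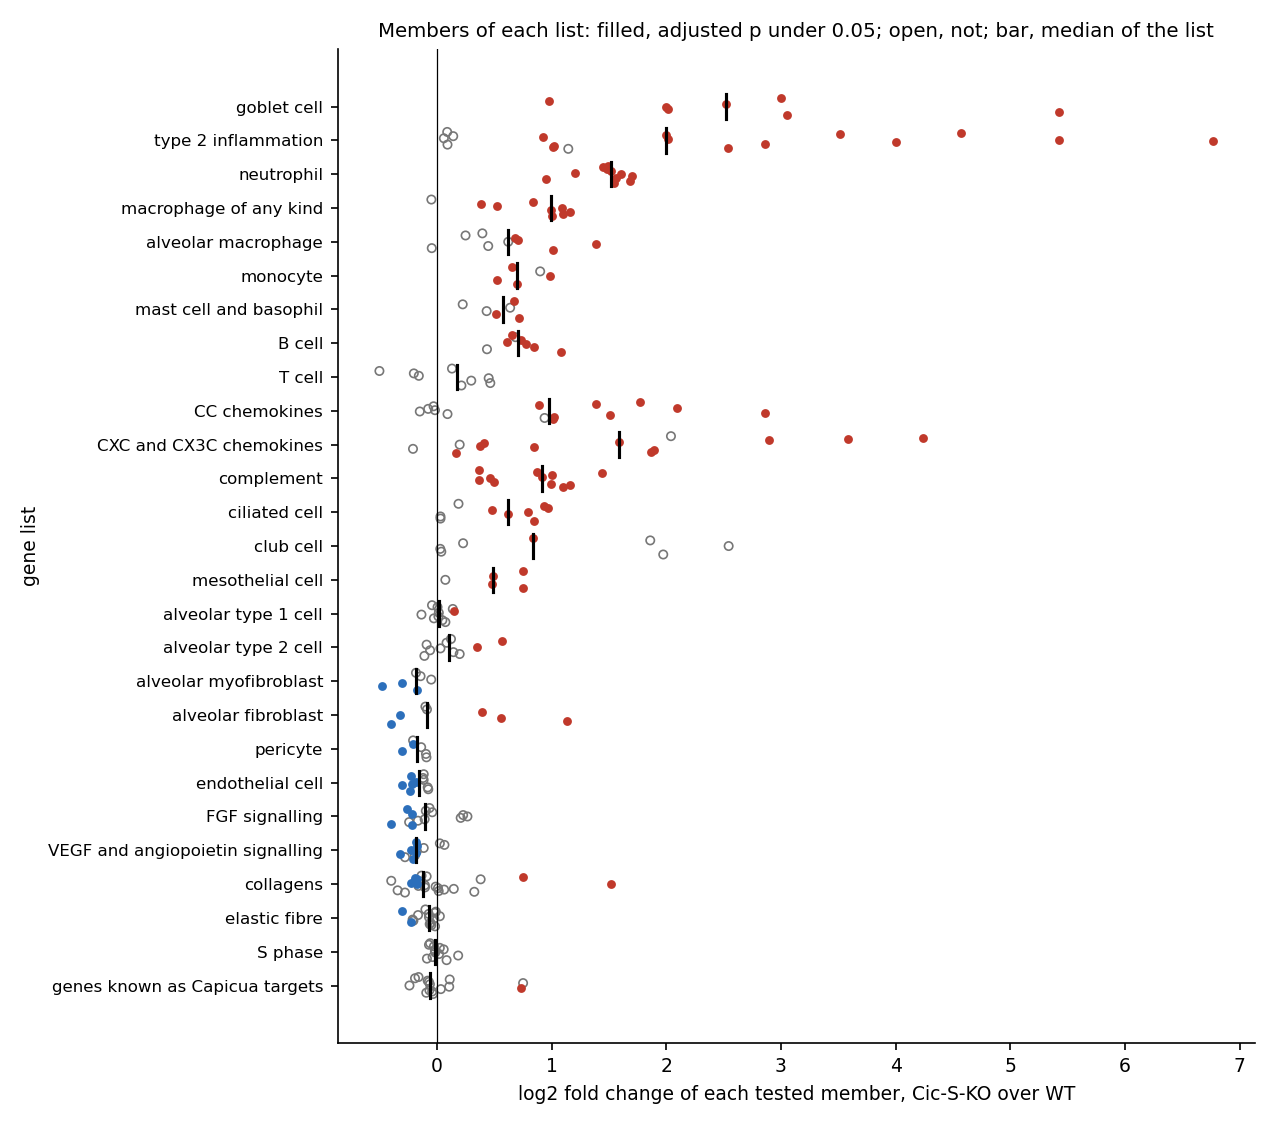
Log2 fold change of every tested member of 27 gene lists (horizontal), with red and blue points for members called higher and lower, open points for members not called and a bar at the list median. The medians of the lists from goblet cell to complement lie to the right of 0, and those of the endothelial, pericyte and FGF lists lie just to the left of it.

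The lower genes changed by small and even amounts. Bmper, a secreted modulator of BMP signalling in lung and vessel development (chr9:23223076-23485200 on GRCm38), had the smallest p of the lower genes. It stood at 69.2, 77.7 and 94.4 CPM in WT and at 51.0, 57.5 and 68.8 CPM in Cic-S-KO, with every knockout library below every WT library (-0.41 ± 0.07, edgeR adjusted p = 0.000140). Galnt16, a glycosyltransferase gene (-0.40 ± 0.06, edgeR adjusted p = 0.000164), and Edil3, a matrix protein of vessels (-0.39 ± 0.06, edgeR adjusted p = 0.000205), also parted completely. Among genes with a mean of at least 1 on the log2 CPM scale, the retinoic acid binding protein gene Crabp1 had the lowest fold change (-1.08 ± 0.34, edgeR adjusted p = 0.0322), a call lost without any 1 of 6 libraries. Other lower genes with larger changes were Lrrc15 (-0.92 ± 0.23, edgeR adjusted p = 0.00991), Acoxl (-0.89 ± 0.17, edgeR adjusted p = 0.00124), the potassium channel subunit Kcne2 (-0.86 ± 0.21, edgeR adjusted p = 0.00901), the neuropeptide receptor Npy2r (-0.77 ± 0.20, edgeR adjusted p = 0.00910), Dab1 (-0.66 ± 0.18, edgeR adjusted p = 0.0133) and Enpp1 (-0.64 ± 0.15, edgeR adjusted p = 0.00720).

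Endothelial genes were lower by a small step. All 10 tested endothelial genes had a negative log2 fold change and 5 were called lower (5.73% of all genes were), with a median of -0.15. Tek, the receptor for angiopoietins, stood at 283, 326 and 367 CPM in WT and at 249, 284 and 309 CPM in Cic-S-KO (-0.23 ± 0.06, edgeR adjusted p = 0.00706). Of 8 Cic-S-KO libraries 4 lay below all WT libraries and the rest overlapped. The sialomucin gene Emcn (-0.30 ± 0.08, edgeR adjusted p = 0.0146), the cadherin gene Cdh5 (-0.24 ± 0.07, edgeR adjusted p = 0.0242), the transcription factor gene Erg (-0.22 ± 0.07, edgeR adjusted p = 0.0240) and Kdr, the main VEGF receptor (-0.18 ± 0.05, edgeR adjusted p = 0.0230), were the others called. Without WT replicate 2 the count fell from 5 to 2. Adcy4 (-0.30 ± 0.05, edgeR adjusted p = 0.000284) and Jam2 (-0.31 ± 0.05, edgeR adjusted p = 0.000364), an adenylate cyclase and a junctional adhesion molecule of vessels, were among the 12 lower genes with the smallest p, and Adcy4 did not overlap.

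Of 12 tested genes of VEGF and angiopoietin signalling 6 were called lower (5.73% of all genes were) and 0 higher (9.99%). Tek, Kdr and Tie1 are members of the endothelial list too, and Tek and Kdr were already counted as lower there. Vegfa, the ligand made by alveolar epithelium, gave -0.17 ± 0.06 (edgeR adjusted p = 0.0450, lost without any 1 of 8 libraries), and Flt4, the receptor of lymphatic endothelium, -0.32 ± 0.09 (edgeR adjusted p = 0.0173). The lymphatic marker Lyve1 gave -0.47 ± 0.15 (edgeR adjusted p = 0.0397, lost without any 1 of 11 libraries). The count was sensitive to single libraries, with 2 called without WT replicate 2, 3 without WT replicate 4 or Cic-S-KO replicate 6, and 4 without WT replicate 1 or 8 or Cic-S-KO replicate 5 or 7. Beside these decreases, the summed macrophage level was above every WT library in all 8 Cic-S-KO libraries (310 to 504 against 204 to 292.5 CPM) and the summed neutrophil level was 106 to 384 against 45.1 to 196 CPM. The part of such shifts in the lower endothelial and mesenchymal genes was not tested.

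Of 13 FGF signalling genes 4 were called lower and 0 higher, against 5.73% and 9.99% of all genes. Fgf10, the growth factor of lung fibroblasts that supports epithelial progenitors, stood at 37.5, 40.5 and 44.7 CPM in WT and at 26.2, 31.3 and 35.7 CPM in Cic-S-KO (-0.40 ± 0.08, edgeR adjusted p = 0.00139), with no overlap. The receptors Fgfr4 (-0.26 ± 0.06, edgeR adjusted p = 0.00796) and Fgfr1 (-0.22 ± 0.07, edgeR adjusted p = 0.0237) and the ligand Fgf1 (-0.22 ± 0.06, edgeR adjusted p = 0.0208) were the others called. The summed level of the 13 genes was 924, 959 and 985 CPM in WT and 818, 862 and 900 CPM in Cic-S-KO, every knockout library lying below the lowest WT library. Of 6 alveolar myofibroblast genes 3 were lower, Hhip (-0.30 ± 0.08, edgeR adjusted p = 0.0125), Aspn (-0.48 ± 0.15, edgeR adjusted p = 0.0304) and Acta2 (-0.18 ± 0.06, edgeR adjusted p = 0.0442), while Pdgfra, which marks these cells, did not pass (-0.05 ± 0.07, edgeR adjusted p = 0.647). The count was 1 without WT replicate 1 or 2 or Cic-S-KO replicate 6, and 2 without any of 8 other libraries.

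Alveolar fibroblast genes split. The lipid genes Lpl (0.56 ± 0.10, edgeR adjusted p = 0.000651) and Plin2 (0.39 ± 0.11, edgeR adjusted p = 0.0155) and the methyltransferase gene Inmt (1.13 ± 0.28, edgeR adjusted p = 0.00833) were higher, and Fgf10 and the matrix gene Npnt (-0.32 ± 0.07, edgeR adjusted p = 0.00184) were lower, out of 7. Lpl and Plin2 are also expressed by macrophages, and both were highest in replicate 6 of Cic-S-KO. The pericyte gene Gucy1a1 was lower (-0.31 ± 0.07, edgeR adjusted p = 0.00234), as was Bmp5, a BMP ligand (-0.37 ± 0.10, edgeR adjusted p = 0.0169). Inhba, the activin A subunit, was the 1 of 21 TGF-beta and BMP genes called higher (1.26 ± 0.33, edgeR adjusted p = 0.0133), beside 9.99% of all genes. Of the 21, 3 were lower, Bmp5 among them, beside 5.73% of all genes. The count of higher genes was 3 without Cic-S-KO replicate 2. That of lower genes was 5 in DESeq2 and without Cic-S-KO replicate 1 or WT replicate 7, and 1 without WT replicate 2.

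Matrix genes were called in both directions. Of 16 elastic fibre genes 2 were lower (5.73% of all genes were), Mfap4 and Fbln5. The elastin gene Eln did not pass (-0.05 ± 0.08, edgeR adjusted p = 0.726). Mfap4, a microfibril-associated protein, stood at 2689, 2953 and 3168 CPM in WT and at 1985, 2347 and 2719 CPM in Cic-S-KO (-0.30 ± 0.07, edgeR adjusted p = 0.00340), with 7 of 8 knockout libraries below all WT libraries. Of 24 collagen genes 5 were lower (5.73% of all genes were), including Col4a1 of the basement membrane (-0.22 ± 0.07, edgeR adjusted p = 0.0215) and the fibrillar collagen gene Col1a2 (-0.17 ± 0.05, edgeR adjusted p = 0.0124), and 2 were higher. The count of lower collagens was 2 without WT replicate 2 or Cic-S-KO replicate 3, 3 without WT replicate 8 and 8 without Cic-S-KO replicate 8. Of 16 metalloproteinase and TIMP genes 5 were higher (9.99% of all genes were) and 0 lower, with 2 lower without WT replicate 7. Of these, 3, Mmp8, Mmp9 (1.202 ± 0.30, edgeR adjusted p = 0.00889) and Mmp12 (1.55 ± 0.36, edgeR adjusted p = 0.00512), are products of neutrophils and macrophages. The WNT antagonists Sfrp2 (0.82 ± 0.10, edgeR adjusted p = 1.40e-05) and Sfrp1 (0.68 ± 0.14, edgeR adjusted p = 0.00188) were higher, both with no overlap. They were among 5 of 26 WNT genes called higher, beside 9.99% of all genes. The count was 3 without WT replicate 2 or Cic-S-KO replicate 3. The 1 lower WNT gene (5.73% of all genes were lower) was the receptor gene Fzd1, with 2 lower without Cic-S-KO replicate 4.

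**Figure D5:**
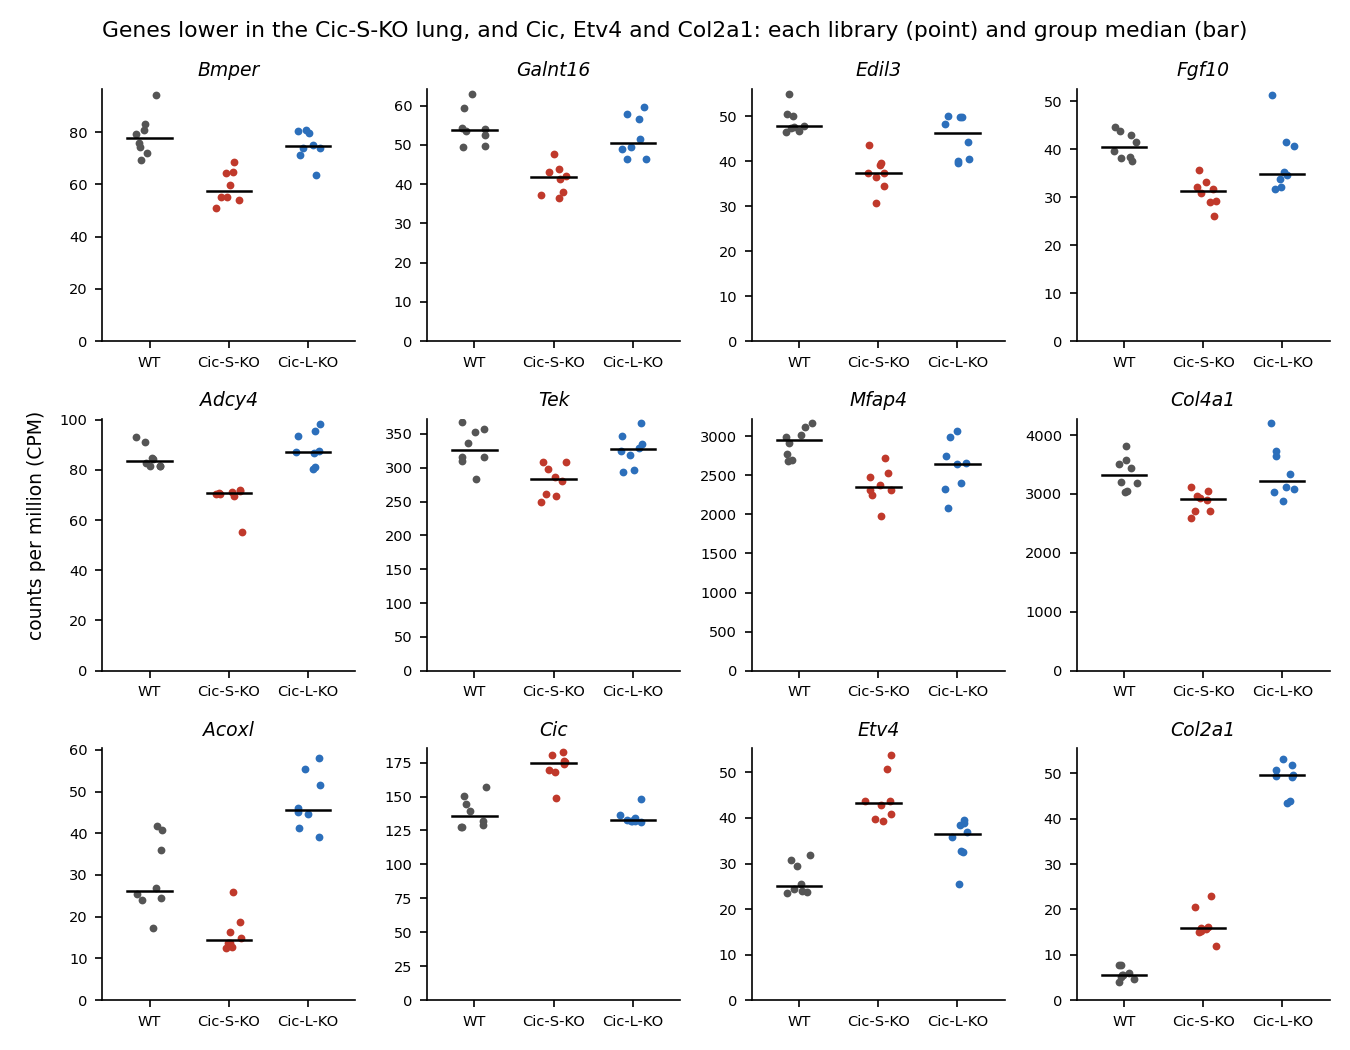
Level in CPM (vertical axis from 0) of 9 lower genes and of Cic, Etv4 and Col2a1 in each WT, Cic-S-KO and Cic-L-KO lung library (points), with group medians as bars. Bmper, Galnt16, Edil3, Fgf10 and Adcy4 have no Cic-S-KO library within the WT range, and Col2a1 rises from WT over Cic-S-KO to Cic-L-KO.

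Of the genes known as Capicua targets, 1 of 15 was called, beside 15.7% of all genes. The count was 2 in DESeq2, with library totals alone, and without Cic-S-KO replicate 4 or WT replicate 5. The gene called throughout was Etv4 (chr11:101769742-101785371 on GRCm38), which stood at 23.4, 24.97 and 31.9 CPM in WT and at 39.4, 43.3 and 53.8 CPM in Cic-S-KO (0.74 ± 0.09, edgeR adjusted p = 1.26e-05), with no overlap. Its paralogues Etv5 (0.11 ± 0.05, edgeR adjusted p = 0.174) and Etv1 (0.03 ± 0.08, edgeR adjusted p = 0.812) did not pass, and the median of the list was -0.06. The ERK feedback inhibitors of the Sprouty, Spred and Dusp families gave few calls too. Among 16 only Dusp2 was called (0.79 ± 0.16, edgeR adjusted p = 0.00125), a phosphatase gene of immune cells with a median of 2.02 CPM in WT and 3.55 CPM in Cic-S-KO.

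The smallest p of all genes belonged to Col2a1, the collagen of cartilage (chr15:97975602-98004695 on GRCm38). It stood at 3.95, 5.60 and 7.72 CPM in WT and at 11.9, 15.8 and 23.0 CPM in Cic-S-KO, with no overlap (1.52 ± 0.12, edgeR adjusted p = 2.20e-08). None of the other 7 tested chondrocyte genes was called, including the cartilage regulator Sox9 (0.38 ± 0.18, edgeR adjusted p = 0.140). The potassium channel gene Kcnc4 (chr3:107438303-107459552 on GRCm38) came second. It was nearly silent in WT, at 0, 0.0727 and 0.196 CPM, and reached 0.537, 1.13 and 2.33 CPM in Cic-S-KO (4.01 ± 0.42, edgeR adjusted p = 2.18e-06). Kcnc4 entered the lung test through the knockout libraries, since every WT library lay below the count filter. Chil4, Clca1, Cxcl5 and Tff2 also had WT libraries below it, so they too needed knockout libraries to pass. Rab3d, a secretory vesicle GTPase (0.36 ± 0.04, edgeR adjusted p = 1.26e-05), the peptidoglycan-binding protein gene Pglyrp1 (1.12 ± 0.14, edgeR adjusted p = 1.40e-05) and Sema4a, an immune semaphorin (0.83 ± 0.10, edgeR adjusted p = 1.88e-05), were also among the 12 higher genes with the smallest p. The metallothionein gene Mt1 (0.97 ± 0.16, edgeR adjusted p = 0.000401) and the clock gene Bhlhe41 (1.02 ± 0.19, edgeR adjusted p = 0.000661) each parted from WT without overlap.

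In edgeR and in DESeq2, 0 of 12 S phase genes, 0 of 14 genes of the unfolded protein and amino acid response and 0 of 9 immediate early genes were called, with 1, 0 and 1 at an unadjusted p under 0.05, while 15.7% of all genes were called. Without WT replicate 7, 1 gene of the unfolded protein and amino acid response was called higher. Of 13 mitotic genes 1 was lower, the spindle motor gene Kif11, a call lost without any 1 of 7 libraries.

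The change differed from that in the lung lacking the long isoform. Tested directly, 2030 genes (12.2%) differed between Cic-S-KO and Cic-L-KO lung, 1221 of them higher (7.31%) and 809 lower (4.85%) in Cic-S-KO. Of the 1668 genes higher than in WT, 735 also exceeded their Cic-L-KO level and 12 were lower. Of the 956 lower genes, 282 were also lower than in Cic-L-KO and 0 were higher. Both tests use the same Cic-S-KO libraries, so these counts are not independent of each other. Of the type 2 list, 10 of 17 genes exceeded their level in the other knockout and 0 fell below it, Retnla differing by 2.59 (edgeR adjusted p = 0.000972) and Chil4 by 3.97 (edgeR adjusted p = 0.00435). For the neutrophil list the count was 2 of 11, and the differences of S100a8 (0.84, edgeR adjusted p = 0.130) and Ltf (1.02, edgeR adjusted p = 0.0746) did not pass.

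Some genes separated the 2 knockouts in other ways. Col2a1 was higher still in Cic-L-KO, at a median of 49.6 CPM, and the difference of -1.55 (edgeR adjusted p = 3.06e-09) was the one with the smallest p. Fgfbp1, an FGF-binding protein gene (-1.40, edgeR adjusted p = 2.03e-08), and Zfp365 (-0.77, edgeR adjusted p = 2.42e-07) stood higher in Cic-L-KO and did not pass between Cic-S-KO and WT. Acoxl, which was lower than WT in Cic-S-KO, stood at a median of 45.5 CPM in Cic-L-KO beside 26.2 CPM in WT and 14.3 CPM in Cic-S-KO (difference -1.57, edgeR adjusted p = 6.91e-06). Dab1 showed the same order, with medians of 10.7, 6.32 and 4.54 CPM (difference -1.33, edgeR adjusted p = 2.73e-05). Etv4 in Cic-S-KO exceeded Cic-L-KO by 0.34 (edgeR adjusted p = 0.00988), and Foxj1 by 0.99 (edgeR adjusted p = 0.000355). For Il33 (0.37, edgeR adjusted p = 0.470), Mmp12 (0.08, edgeR adjusted p = 0.923) and H2-K1 (0.21, edgeR adjusted p = 0.706) no difference between the knockouts was detected.

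The effect of the Cic-S-KO genotype in lung was also tested against its effect in cortex and cerebellum, where tissue, age and batch cannot be told apart. Over 19227 genes, 1391 (7.23%) had an effect that differed from cortex (4.65% with a higher and 2.58% with a lower value in lung) and 1278 (6.65%) one that differed from cerebellum (3.57% and 3.08%). Of the 1668 genes higher in lung, 550 had a larger effect in lung than in cortex and 400 a larger one than in cerebellum. Among the genes lower in lung, 203 had a more negative effect there than in cortex and 279 than in cerebellum. Both tissue tests use the same lung libraries that selected these genes, so the counts are not independent of that selection. Kcnc4, nearly silent in WT lung, had the smallest p in both tests. Its log2 fold change in lung exceeded that in cortex by 4.05 (edgeR adjusted p = 1.23e-12) and that in cerebellum by 3.98 (edgeR adjusted p = 2.52e-12). Pcnx2, a pecanex family gene, exceeded them by 1.284 and 1.296. The microtubule-associated gene Eml1 was lower by 0.27 ± 0.07 in lung (edgeR adjusted p = 0.00707), and its effect lay 0.82 below that in cortex and 0.58 below that in cerebellum on the log2 scale. Coro1a, the coronin of leukocytes, exceeded cortex by 0.81 and cerebellum by 0.90, and C1qa exceeded them by 1.14 and 1.02. Genes such as Chil4 and Retnla did not pass these tests (edgeR adjusted p = 0.874 and 0.936 against cortex). Their differences from cortex were 4.61 ± 11.95 and 1.66 ± 7.27. These standard errors are derived from the F statistic of the test and widen as F nears 0, so they restate its result. The reason for the small F was not tested.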

How the data were processed

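Polyadenylated RNA was extracted with miRNeasy and sequenced by Azenta, per the labels' protocols. Reads were aligned with STAR 2.7 to GRCm38.p6, per the submitters' processing notes, and the deposited values are raw read counts per gene. The counting program, its annotation and its strand setting are not given in the sources used here, so overlapping and antisense genes may share reads. Gene names came from GENCODE M21, which matched 50725 of 50789 identifiers without their version (49135 with it). Genes of chromosome 1 and some others were not analysed here.

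Counts of the 24 lung libraries were normalised by TMM, filtered by filterByExpr and fitted with a robust quasi-likelihood model in edgeR 4.0.16 under R 4.3.3. The standard error is the log2 fold change divided by the square root of F. Tissue differences came from an interaction contrast over 46 WT and Cic-S-KO libraries. P-values were adjusted over all tested genes by Benjamini-Hochberg (threshold 0.05). CPM were computed from TMM-scaled totals. Tested on simulated data with 200 changed genes at a log2 fold change of 1, edgeR recovered 169 among 16585 genes with 2.87% false calls for Cic-S-KO against WT. Most changes in the data were smaller, with 1665 of the 2624 called genes under 0.5 on the log2 scale. Recovery of such small changes was not tested.

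The members, the gene lists and the tests were chosen with earlier results of these data known. Named genes were Cic, Atxn1 and Atxn1l, the 12 called genes with the highest and the 12 with the lowest fold change at a mean log2 CPM of at least 1, the 12 with the smallest p in each direction, the 5 called genes of highest CPM in each direction, up to 4 called members and the first 2 members of each list, and the 3 genes with the smallest p in each other contrast. Genes named beyond this rule are list members chosen after their values were seen, and not every gene under the rule is named. Of 56 pairs of replicates, 0 held identical counts. Alternatives were DESeq2 1.42.0, other scalings and filters, GC offsets, Y-linked expression as a covariate, the replicate number as a block and each library left out.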

Additional observations from a re-analysis of the deposited data

Results flagged for a closer look

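In 43 of 288 groups of 8 values the highest or lowest library stood apart from the rest by Dixon's criterion. For independent, normally distributed values about 1 in 20, or 14.4, would do so. The criterion was applied to CPM without a log and to genes chosen for the text, many of which vary together. The 14.4 is therefore not a strict expectation. The flags gathered in a few libraries.

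Replicate 6 of Cic-S-KO was the extreme library more often than any other. It was highest among the 8 for the macrophage genes Arg1 (62.9 CPM), Spp1 (251 CPM) and Cd68 (49.6 CPM). It was also highest for the lysosomal gene Psap (1805 CPM), the clock gene Bhlhe41 (26.2 CPM) and the immune semaphorin gene Sema4a (49.3 CPM). The chemokine and cytokine genes Ccl9 (79.0 CPM), Ccl6 (213 CPM), Ccl3 (5.81 CPM), Il33 (244 CPM) and Il1b (18.6 CPM) peaked there too. So did C3 (1274 CPM), Lpl (221 CPM), Plin2 (306 CPM), Inhba (31.2 CPM), Sfrp1 (28.4 CPM) and Cd22 (8.43 CPM). The vessel gene Adcy4 was lowest there, at 55.4 CPM.

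Replicate 2 of Cic-S-KO was apart for the goblet cell genes Clca1 (778 CPM), Fcgbp (26.7 CPM), Tff2 (31.6 CPM) and Muc5ac (70.8 CPM), and for Chil4 (243 CPM) and Fer1l6 (37.6 CPM). Among WT libraries, replicate 5 was highest for the same kind of gene, with Agr2 at 2.96 CPM, Tff2 at 4.88 CPM and Muc5b at 33.4 CPM. WT replicate 7 was highest for Chil3 (70.8 CPM), Lpl (136 CPM), Plin2 (219 CPM) and Ccl2 (1.37 CPM) and lowest for Aspn (108 CPM). WT replicate 3 was highest for H2-K1 (570.3 CPM), H2-D1 (707 CPM), C1qb (23.8 CPM), Ly6c2 (10.03 CPM) and Dusp2 (3.39 CPM) and lowest for Fgf1 (126 CPM).

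Single values apart were Cxcl5 in WT replicate 1 (2.69 CPM), Edil3 in WT replicate 2 (54.8 CPM), Cic in Cic-S-KO replicate 3 (149 CPM, the lowest of its group), Acoxl in Cic-S-KO replicate 4 (25.9 CPM) and the library total of Cic-S-KO replicate 5, at about 35520000 reads.

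The effect of the Cic-S-KO genotype differed between lung and cortex in 1391 genes and between lung and cerebellum in 1278, tested as an interaction in edgeR. The lung effect minus the cortex effect, on the log2 scale, was 4.05 for Kcnc4, 1.28 for Pcnx2, -0.82 for Eml1, 0.81 for Coro1a and 1.14 for C1qa. The lung effect minus the cerebellum effect was 3.98 for Kcnc4, 1.296 for Pcnx2, -0.58 for Eml1, 0.90 for Coro1a and 1.02 for C1qa.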

How the results depend on the processing

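The genes called for Cic-S-KO against WT lung (2624; 1668 higher, 956 lower) numbered 1815 higher and 1346 lower in DESeq2, 1607 and 1103 with RLE factors, 1775 and 770 with library totals alone, 1316 and 793 with no count filter, 1477 and 985 at a mean of at least 50 counts, 1500 and 923 with only WT and Cic-S-KO fitted, and 1512 and 992 with GC offsets. With 1 library left out the count ran from 1891 without WT replicate 2 (1255 higher, 636 lower) to 3340 without WT replicate 7 (1907 higher, 1433 lower), and 1656 genes were called in all 16 such fits. Calls that also changed by at least 0.5 on the log2 scale numbered 959 (909 higher, 50 lower), and 839 against Cic-L-KO (733, 106), 659 for lung against cortex (504, 155) and 627 for lung against cerebellum (433, 194). DESeq2 gave 957 lower for lung against cerebellum, and fitting those 2 tissues alone gave 460 higher and 634 lower. After the Y-linked counts were seen, 4 against 4 libraries were also fitted, which gave 387 calls (292, 95) with Y-linked counts and 481 (412, 69) without, where fewer libraries were fitted. A replicate block gave 1917 genes higher and 1422 lower. The replicate numbers were not taken as pairs, because the labels do not say what shares a number. The correlation of same-numbered deviations was over 0.1 in 5 of 8 pairs (0.0112 to 0.252). In addition, 4 WT libraries correlated best with their own number, a hint of shared structure from the data only. Replicates 1 to 4 of each lung group carried Y-linked counts, and the part of this in the correlations was not tested. Of 125 called genes that the text draws on, 109 stayed called under each of these settings that tested them and 0 reversed, leaving aside the size threshold of 0.5 and the split by Y-linked counts. Il33 gave 0.76 with the block (edgeR adjusted p = 0.0993). Elsewhere the cause of these shifts was not tested. Genes of a few reads per library, such as Il13, are limited by depth.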
